A study of Mus musculus with 28 samples.

Results

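The comparison described here is between NMuMG cells held in TGF-β for 24h while MEK was blocked and untreated NMuMG cells. NMuMG is a mouse mammary gland epithelial cell line, here its subclone E9, so that every library comes from a single clonal line. The 3 ERKi 24h libraries are of cells that received the MEK inhibitor UO126 at 25 µM, 30 min before TGF-β at 2 ng/ml, and were collected 24h later. The 3 0h libraries are of cells with neither TGF-β nor inhibitor. Members were chosen by their sample records, and these 6 libraries are among 15 H3K27ac ChIP-seq libraries and 28 samples in all. The change from 0h to ERKi 24h therefore contains TGF-β, the inhibitor, its solvent and a day in culture together, and these cannot be told apart within it, because no library had the inhibitor without TGF-β. The 3 24h libraries, with TGF-β at the same dose and the solvent DMSO, are the matched group for the inhibitor itself. The records do not say that the replicates came from separate cultures, so p-values measure the spread between these libraries, which may be technical.

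H3K27ac, acetylation of lysine 27 of histone H3, marks active promoters and enhancers. TGF-β binds its receptor kinases, which phosphorylate Smad2 and Smad3, and these enter the nucleus with Smad4, where they act on enhancers together with other factors, among them AP-1. In mammary epithelial cells this leads to epithelial-mesenchymal transition (EMT), in which junctions are lost and mesenchymal genes rise. MEK phosphorylates and activates ERK, which is switched on by growth factors and also by TGF-β. ERK drives its own feedback genes, such as Dusp, Spry and Errfi1 genes, and the AP-1 factor gene Fosl1, and UO126 keeps it from being activated.

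The values are pileups, the number of overlapping ChIP fragments at the summit of the highest peak of a region. They were scaled between libraries by quantile normalisation on the log2 scale, so that a normalised pileup means the same rank level in each library and not an absolute amount of acetylation. A change is a difference of mean log2 pileups. Regions are the 89050 merged peaks of all 15 libraries, and each is called by its nearest transcription start site of a protein-coding gene, which does not show that it acts on that gene. A region was tested where all 6 libraries had a peak, and an adjusted p under 0.05 was taken as the threshold.

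The sequences under the summits of 6 named regions are shown as examples of regions that changed or differed between ERKi and DMSO. They are not a ranking, since regions near Steap4, Tprg and Muc5b with changes as large are not shown. Each is the 201 bases centred on the summit, read on the forward strand of mm9 from the NCBIM37 assembly. Capitals mark matches on either strand to the SMAD motif CAGAC and the aryl hydrocarbon receptor motif GCGTG, and none of the 6 holds the AP-1 motif TGANTCA. Windows at Steap4, Tprg and Snai1, not shown, held no match to any of these motifs, and that at Muc5b held CAGAC alone. The regions near Pmepa1 and Morn4 rose, that near Ermp1 fell with and without the inhibitor, the Cyp1b1 promoter rose with the inhibitor, and those at Fosl1 and near 1110012J17Rik fell with it.
Pmepa1, upstream (chr2:173147111-173147311): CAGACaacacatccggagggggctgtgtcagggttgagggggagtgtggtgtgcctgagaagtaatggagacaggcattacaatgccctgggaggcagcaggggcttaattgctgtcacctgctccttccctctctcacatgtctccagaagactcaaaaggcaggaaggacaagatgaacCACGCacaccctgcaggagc
Morn4, intronic (chr19:42154220-42154420): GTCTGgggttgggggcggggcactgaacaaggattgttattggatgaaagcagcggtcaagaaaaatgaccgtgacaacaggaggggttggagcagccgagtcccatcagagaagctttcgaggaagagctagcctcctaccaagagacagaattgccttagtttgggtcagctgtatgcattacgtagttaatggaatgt
Ermp1, upstream (chr19:29741390-29741590): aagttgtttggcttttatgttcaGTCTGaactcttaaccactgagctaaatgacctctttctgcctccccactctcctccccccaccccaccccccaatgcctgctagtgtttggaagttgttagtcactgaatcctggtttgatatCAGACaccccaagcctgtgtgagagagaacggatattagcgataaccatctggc
Cyp1b1, promoter (chr17:80114541-80114741): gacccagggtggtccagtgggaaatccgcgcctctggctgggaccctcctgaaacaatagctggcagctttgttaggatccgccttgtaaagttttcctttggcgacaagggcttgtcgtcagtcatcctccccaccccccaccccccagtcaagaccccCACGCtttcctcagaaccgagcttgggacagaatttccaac
Fosl1, intronic (chr19:5448329-5448529): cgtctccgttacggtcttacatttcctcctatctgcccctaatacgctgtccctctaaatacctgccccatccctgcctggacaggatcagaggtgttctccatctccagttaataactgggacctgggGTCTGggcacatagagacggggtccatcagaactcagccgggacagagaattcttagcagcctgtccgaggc
1110012J17Rik, intronic (chr17:66701321-66701521): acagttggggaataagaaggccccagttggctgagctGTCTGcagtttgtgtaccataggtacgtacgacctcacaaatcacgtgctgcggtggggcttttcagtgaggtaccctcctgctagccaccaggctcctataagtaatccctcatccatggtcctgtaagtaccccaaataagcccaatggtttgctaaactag

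In windows of this length around the summits of all merged regions, CAGAC was present in 41.9%, GCGTG in 13% and TGANTCA in 5.8%, so a match to the shorter motifs is common. The summit of H3K27ac lies over nucleosomes, beside rather than at the sites that factors occupy. A match is a string of letters and not a bound site.

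The number of peaks was 52221, 53603 and 59658 at 0h and 64660, 56042 and 69180 in ERKi 24h, and the median pileup of a peak was between 41 and 57 fragments at 0h and between 40 and 50 in ERKi 24h. Without read totals the depth is unknown, and the 3 libraries per group set the precision. ERKi 24h replicate 2 had fewer peaks than the highest 0h library, so the groups overlapped. Peaks covered 35.5 ± 4.93 Mb (SD, n = 3) at 0h and 39.5 ± 7.25 Mb (SD, n = 3) in ERKi 24h. Neither total differed beyond the spread of libraries (two-sided exact permutation p = 0.2 for the number and 0.4 for the bases, where 0.1 is the smallest that 3 against 3 allow). Of 7 epithelial marker genes, Cdh1, Krt8 and Krt18 had a peak within 1000 bp of a start site in all 6 libraries, Cldn4 in 3, and Epcam, Cldn3 and Cldn7 in 0. Of 15 markers of blood, endothelial and neuronal cells found in the annotation, 14 had no such peak in any of the 6 libraries and Rbfox3 had it in 1 library, with a pileup of 13.

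H3K27ac changed widely between 0h and ERKi 24h, and about as many regions rose as fell. In such bulk libraries a change in the number of cells that carry the mark and a change of the mark in each cell cannot be told apart. Of 30116 regions tested, 3147 were higher in ERKi 24h (10.4%) and 3072 were lower (10.2%). The regions that rose lay nearest to 2073 genes and those that fell to 2165. With the replicate number as a block, 5873 were higher and 6717 lower. Without 0h replicate 3 the number lower was 1905, and without ERKi 24h replicate 1 it was 2045. In the DMSO arm, 3078 of 29359 regions were higher at 24h than at 0h (10.5%) and 2362 lower (8.05%), against the same 0h libraries.

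**Figure D1:**
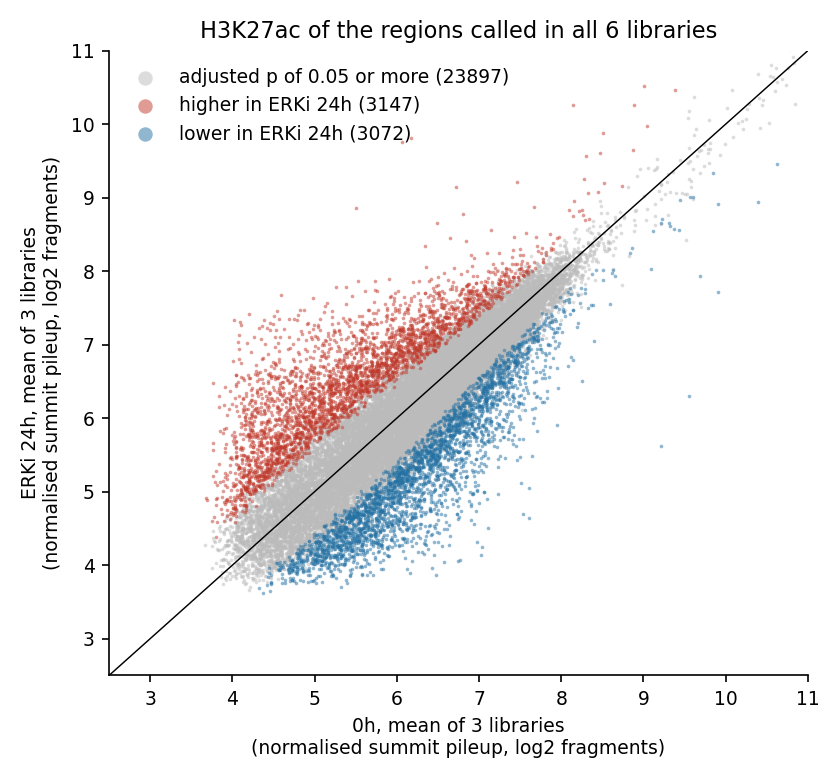
Mean normalised summit pileup of 3 0h libraries (x axis, log2 fragments) against 3 ERKi 24h libraries (y axis, log2 fragments), 1 point for each of the 30116 regions called in all 6 libraries, with the line of equal levels. The 3147 regions higher in ERKi 24h (red) lie above the line and the 3072 lower (blue) below it, on both sides from weak to strong peaks.

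The libraries of both groups stood apart on the whole. The root mean square difference of log2 pileups over the 26934 regions called in every library was 0.568 to 0.79 between an ERKi 24h and a 0h library, against 0.361 to 0.436 within 0h and 0.336 to 0.493 within ERKi 24h. Between ERKi 24h and 24h it was 0.445 to 0.72, and between 24h and 0h 0.524 to 0.768. By their medians, ERKi 24h differed from 0h by 0.654, 24h differed from 0h by 0.665, and both differed from each other by 0.535, with ranges that overlap.

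The regions chosen for a rise or fall in ERKi 24h also had levels in the other libraries, which entered the fit only through the normalisation and the estimate of the spread. Over the 2947 higher regions with a peak in all 15 libraries, the median of the mean pileup was 41.7 fragments at 0h, 70.1 in ERKi 4h, 95.5 in ERKi 24h, 68.3 at 4h and 86.6 at 24h. The DMSO level at 24h was thus close to that of ERKi 24h. Over the 2532 lower regions it was 88 at 0h, 61.4 in ERKi 4h, 41.9 in ERKi 24h, 69.8 at 4h and 59.9 at 24h. Here the DMSO level lay between 0h and ERKi 24h. Set against the shared 0h libraries, the median change of the higher regions was 0.98 in ERKi 24h and 0.83 at 24h, and that of the lower regions was -0.92 and -0.49, beside medians of -0.04 and -0.05 over all regions tested. These are descriptions, since the regions were chosen on the first of the comparisons.

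The largest rises were near Morn4, Steap4, Sox10 and Pmepa1, and a difference from 24h passed the test at a single region near Morn4. An intronic region 6.54 kb downstream of the start of Morn4, a gene for a protein with MORN repeats (chr19:42153702-42155420), had pileups of 49.2, 105 and 58.3 at 0h and 879.8, 645 and 1148 in ERKi 24h. The change was 3.69 ± 0.25 (SE, adjusted p = 2e-07), and the 24h libraries held 624, 489.6 and 809.8. A second region 13.8 kb downstream (chr19:42146242-42147892) went from 79.2, 92.6 and 50.8 at 0h to 934, 639 and 1207 in ERKi 24h, a change of 3.64 ± 0.22 (SE, adjusted p = 5.8e-08). Every ERKi 24h library was above every 24h library there, which held 358, 304 and 429.6, and the difference from 24h was 1.31 ± 0.22 (SE, adjusted p = 0.0016). An intronic region 14.9 kb downstream of the start of Steap4, which encodes a membrane metalloreductase (chr5:7973572-7976017), had 38.6, 54.2 and 44.2 fragments at 0h and 484, 382 and 546 in ERKi 24h. It changed by 3.36 ± 0.19 (SE, adjusted p = 3.8e-08), with 335, 268 and 449 at 24h. In the first Morn4 region and at Steap4, each ERKi 24h library was above the 24h library of the same number. With the replicate block the difference from 24h passed at Steap4 (0.44 ± 0.13, SE, adjusted p = 0.012) and not at the first Morn4 region (0.46 ± 0.19, SE, adjusted p = 0.064).

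The region near Pmepa1 is 45.2 kb upstream of its start (chr2:173146144-173147978). Pmepa1 is induced by TGF-β and its product restrains Smad signalling by binding receptor-activated Smads. The pileups were 15.1, 15.5 and 21 at 0h and 144, 134 and 208 in ERKi 24h, a change of 3.22 ± 0.22 (SE, adjusted p = 2e-07). At 24h they were 166, 150.2 and 226, so the DMSO and ERKi libraries overlapped, and the difference between them was -0.16 ± 0.22 (SE, adjusted p = 0.76). ERKi 4h, with 94.1, 86 and 114, lay between 0h and ERKi 24h. A region 12.3 kb upstream of Sox10, a transcription factor gene of neural crest cells (chr15:79006068-79007466), had 12.2, 18.7 and 18.7 at 0h and 152, 117 and 239 in ERKi 24h, with 116, 73.7 and 180.4 at 24h. Its change was 3.32 ± 0.31 (SE, adjusted p = 3e-06), and its difference from 24h passed with the replicate block alone (0.49 ± 0.18, SE, adjusted p = 0.045).

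The largest falls were of different kinds when set beside 24h. A region 18.6 kb upstream of Ermp1, which encodes a metallopeptidase of the endoplasmic reticulum (chr19:29740660-29742562), had 576, 579 and 624 fragments at 0h and 33.5, 71.1 and 50.5 in ERKi 24h, a change of -3.59 ± 0.32 (SE, adjusted p = 1.8e-06). The 24h libraries held 29.4, 89.9 and 37.5, which overlapped ERKi 24h. A neighbouring region 8.64 kb upstream (chr19:29730159-29732144) went from 700.4, 666 and 916 to 55.5, 134 and 65.7, a change of -3.26 ± 0.37 (SE, adjusted p = 1.6e-05), with 53.5, 205 and 94.9 at 24h. In ERKi 4h the first of both had 244, 368 and 261, all below every 0h library and above every ERKi 24h library.

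By contrast, a region 139 kb downstream of the start of Tprg (chr16:25425036-25426501), in the stretch that Tprg shares with the basal epithelial factor gene Trp63, held 198, 166 and 228 at 0h, 67.2, 108 and 112 at 24h and 18.6, 31.9 and 26.1 in ERKi 24h. The 3 groups did not overlap, and the change from 0h was -2.97 ± 0.28 (SE, adjusted p = 2.5e-06) and the difference from 24h -1.91 ± 0.28 (SE, adjusted p = 0.00058). A region 2.5 kb upstream of Muc5b, a gel-forming mucin gene (chr7:149022149-149023078), showed the same order, with 113, 123 and 159 at 0h, 56.9, 66.6 and 99.2 at 24h and 17, 19.7 and 16.5 in ERKi 24h. Its change from 0h was -2.88 ± 0.24 (SE, adjusted p = 1.4e-06) and its difference from 24h -2.03 ± 0.25 (SE, adjusted p = 0.00017). The region near 1110012J17Rik, 5.54 kb upstream of its start and within an annotated intron (chr17:66700700-66701693), had 158, 169 and 238 at 0h and 148, 159.7 and 208 at 24h, which overlapped, but 20.9, 31.9 and 26.1 in ERKi 24h. It differed from 0h by -2.84 ± 0.25 (SE, adjusted p = 2.2e-06) and from 24h by -2.71 ± 0.25 (SE, adjusted p = 4.8e-05). At 4h of ERKi, 2 libraries held 22.4 and 38.9 and the other had no peak there.

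**Figure D2:**
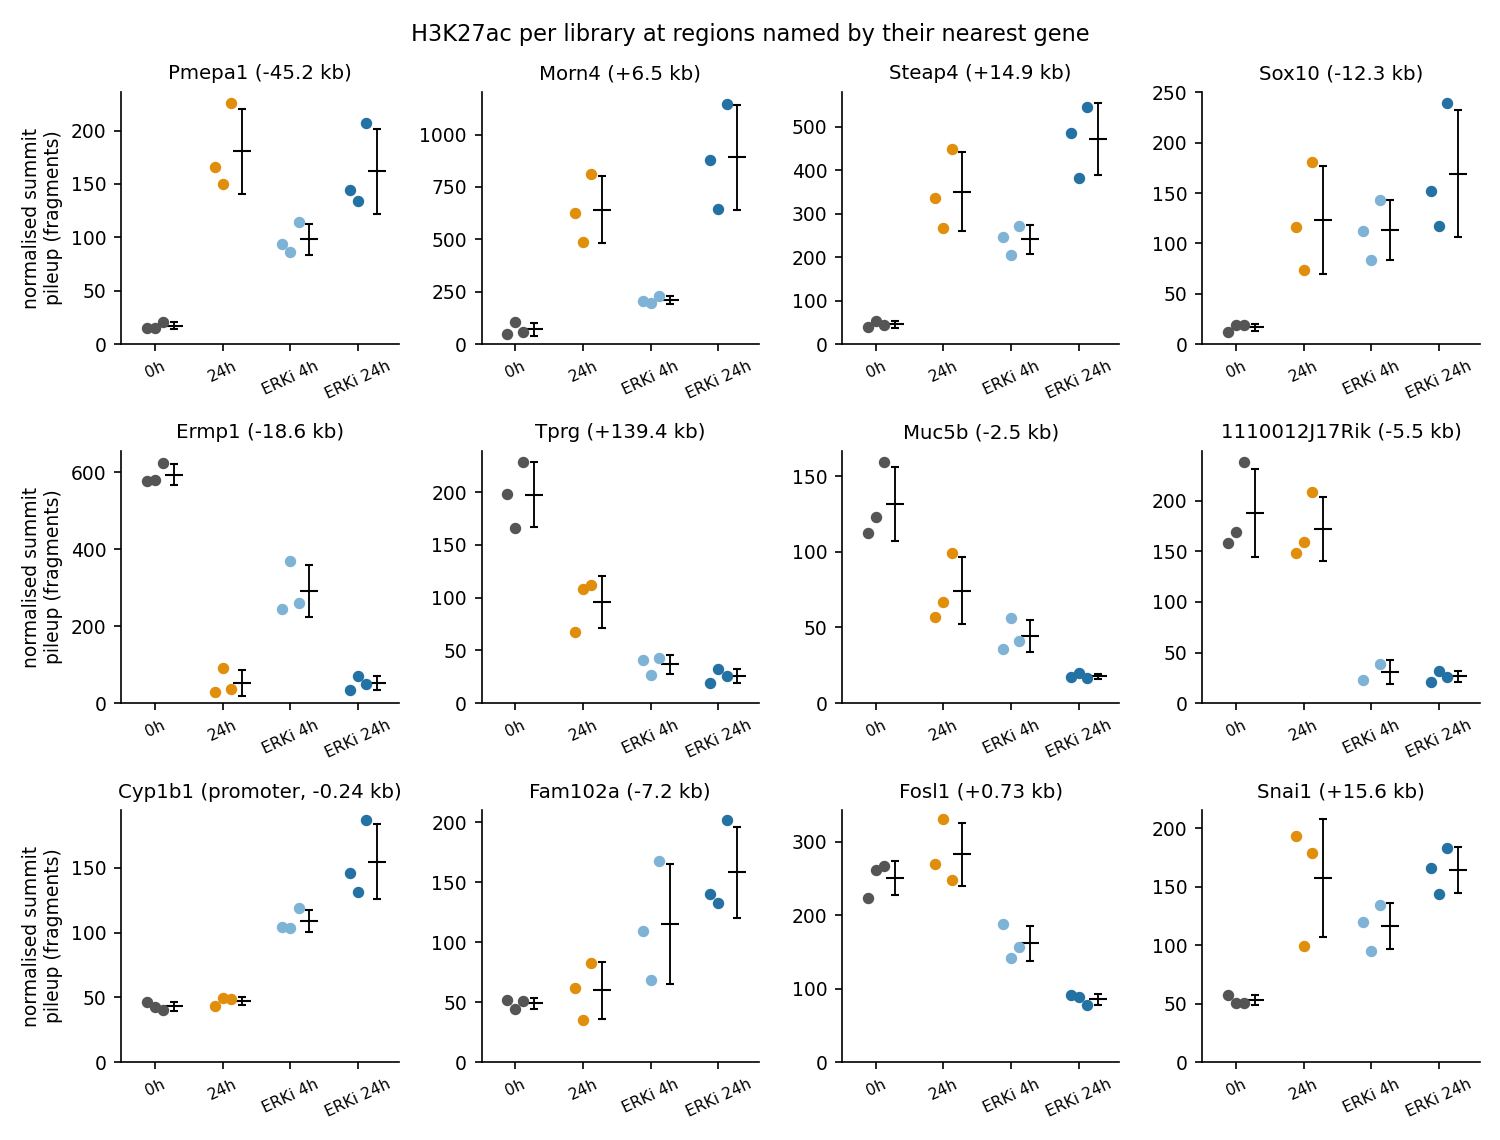
Normalised summit pileup in fragments (y axis, linear, from 0) in each library of 0h, 24h, ERKi 4h and ERKi 24h (x axis) for 12 regions named by their nearest gene and the distance to its start. Points are libraries and the bars beside them are mean ± SD of the libraries with a peak, 3 except for 2 in ERKi 4h near 1110012J17Rik. Pmepa1, Steap4, Sox10 and Snai1 are higher than at 0h in both 24h groups, 1110012J17Rik and Fosl1 are lower in ERKi 24h than in every 0h and 24h library, and Cyp1b1 and Fam102a are higher in ERKi 24h than in every 0h and 24h library, although the fold enrichment of Snai1 and Cyp1b1 turned.

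The local background moved with many of these pileups. MACS2 estimated it around each peak, and at the Cyp1b1 promoter it was 4.72 fragments at 0h and 32.4 in ERKi 24h, and at the Tprg region 44.2 and 3.16. Fold enrichment, the ratio of the pileup to that background, can fall where the pileup rises. On that scale 15 of 48 tested regions named here kept their call, 22 kept the direction without passing, and 11 turned, among them Tprg, Muc5b, Cldn4, Sox4, Snai1, Dusp2, Jdp2, Cxcl5, Ctgf and F3, and Cyp1b1, whose fold enrichment changed by -0.56 on the log2 scale (adjusted p = 0.0032). With the -log10 p of the peaks as the measure, none of them turned. Over all regions tested, 1177 were higher and 1237 lower by fold enrichment.

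Regions without a peak in some libraries cannot be tested by level and were described by their calls. A peak was present in all 3 ERKi 24h libraries and in no 0h library at 3904 of 89050 regions (4.38%), here called gained, and the reverse held at 1603 (1.8%), here called lost. Of the gained regions, 2003 had a peak in all 3 24h libraries and 667 in none of them, while 928 had it in all 3 ERKi 4h libraries and 1326 in none. Of the lost regions, 807 had no peak in any 24h library and 239 had a peak in all 3, while 405 had none in ERKi 4h and 363 had all 3. Without ERKi 24h replicate 2, the library of that group with the fewest peaks, the gained number was 9871. Without 0h replicate 2 the lost number was 2882, and without ERKi 24h replicate 3 it was 2575. A peak of a 0h library lay within 1000 bp of 605 gained regions (15.5%), and a peak of an ERKi 24h library within 1000 bp of 466 lost regions (29.1%).

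**Figure D3:**
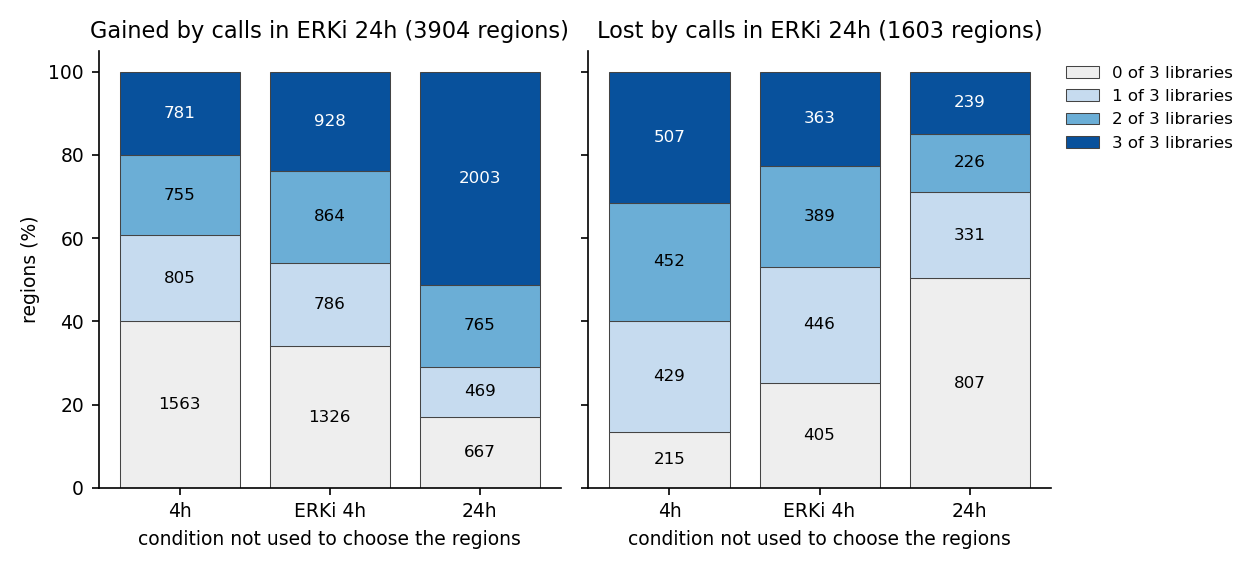
Share of the 3904 gained and 1603 lost regions (y axis, percent) that had a peak in 0, 1, 2 or 3 libraries of 4h, ERKi 4h and 24h (x axis), with the number of regions printed in each segment. Of the gained regions 2003 have a peak in all 3 24h libraries, and of the lost regions 807 have none there.

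The gained regions of highest pileup included 3 in introns of Pmepa1. The region 10.1 kb downstream of its start held 323, 263 and 300.5 fragments in ERKi 24h and 312, 255 and 296 at 24h. Those 12.9 and 17.7 kb downstream had 285, 269 and 345, and 278, 234 and 289.6, in ERKi 24h. None of the 3 passed the test of a difference between ERKi 24h and 24h. Their fold over the local background was low, 1.42 to 1.78 on average in ERKi 24h, as the local background there was 176 to 249.9 fragments. A gained region 33.4 kb upstream of Jak2, the cytokine receptor kinase gene (chr19:29292025-29293094), held 279, 201 and 304 in ERKi 24h and more in each 24h library, 507, 394 and 695, a difference of -1.01 ± 0.21 (SE, adjusted p = 0.015). The last of the 5, 34.4 kb downstream of the start of Zfp36l2, which encodes an mRNA decay factor (chr17:84551013-84552331), held 238, 194 and 311 in ERKi 24h and 277, 124 and 306 at 24h.

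Among lost regions the highest at 0h were in an intron near Glis3, a zinc-finger factor gene (chr19:28642702-28643193), with 170.2, 203 and 267 fragments, and near Gm17379 (chrX:166427265-166427600), with 219.7, 169 and 198. The Glis3 region had no peak in any 24h library either, and that near Gm17379 had it in 1 of them. Regions near D15Ertd621e (chr15:58241231-58242045) and Anxa13, an annexin gene (chr15:58218168-58218383), held 175, 198 and 196 and 200.5, 179 and 167 at 0h. The former kept a peak in all 3 24h libraries, with 94.8, 131 and 144, and had none in ERKi 4h, and the latter kept it in 1. A narrow region at the promoter of Bcl2l1, which encodes the survival protein Bcl-xL (chr2:152657168-152657428), held 186, 161 and 185 at 0h and 135 in the single 24h library with a peak. ERKi 4h still had it in all 3 libraries.

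By gene, gained regions were most numerous near Tns3, which encodes an adaptor of focal adhesions, with 12 of 90 regions. Gm22 and Spsb1 followed with 11 each, of 36 and 25 regions, and then Col27a1, a fibrillar collagen gene, and Pmepa1 with 9 each, of 25 and 37. The product of Spsb1 is known to limit TGF-β receptor levels. Lost regions were most numerous near D630013G24Rik with 7 of 25 and near the zinc-finger factor gene Sall3 with 6 of 34. Actbl2, Myc, Smad3 and Wwox had 5 each, and Myc and Smad3 also had 3 gained regions each. The lost regions of Myc were 262 to 503 kb from its start.

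A minority of the regions that changed lay in runs. Regions changed in the same direction were joined where their summits were at most 50 kb apart. There were 47 rising runs of 5 or more regions, holding 269 of the 3147 higher regions. Falling runs of that size numbered 41 and held 249 of the 3072 lower regions. The runs named here were chosen after their values were seen. Each begins and ends at a changed region, which raises the share of changed regions within it. Near Nfatc2, a calcium-regulated factor gene (chr2:168356902-168454418), 9 of 9 tested regions rose, with a median change of 1.66, and 1.37 at 24h against 0h. Near Foxq1, a forkhead factor gene (chr13:31550130-31624812), it was 7 of 7, with medians of 1.34 and 1.08. At Pmepa1 (chr2:173085974-173147978), 7 of 7 rose, with medians of 1.33 and 1.16. Over all tested regions nearest to each gene, 9 of 12 rose for Nfatc2, 8 of 13 for Foxq1 and 7 of 7 for Pmepa1. Between ERKi 24h and 24h, 0 regions differed in the Nfatc2 run, 1 in the Foxq1 run and 0 in the Pmepa1 run. With the replicate block these were 1, 1 and 0.

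The runs with most falling regions lay near Phlda1 and Errfi1. Near Phlda1, an immediate-early gene (chr10:110981244-111110878), 12 of 18 tested regions fell, with a median change of -0.74 in ERKi 24h and -0.31 at 24h against 0h. At Errfi1, whose product inhibits the EGF receptor, and the adjoining Slc45a1 (chr4:150060653-150228997), 11 of 11 fell, with medians of -1.09 and -0.34. In the Errfi1 run 7 regions were also lower in ERKi 24h than at 24h, and 11 with the replicate block. At Dusp6, the ERK phosphatase gene, and Poc1b (chr10:98663446-98727626), 7 of 12 fell, with medians of -0.77 and -0.37, and 0 differed from 24h, against 4 lower with the block. The run over Id1, Bcl2l1 and 3 other genes (chr2:152522159-152674778) held 9 falling regions of 17, with medians of -0.83 and -0.08.

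A run between Tprg and Trp63 (chr16:25384740-25487102) fell in 7 of 7 regions, with a median of -1.76 in ERKi 24h and -0.60 at 24h, and 4 of the regions were lower in ERKi 24h than at 24h, and 7 with the block. A run near Il33, the gene of an epithelial alarmin cytokine, and Ranbp6 (chr19:29897077-30022105) fell in 7 of 13 regions. Its medians were -1.26 in ERKi 24h and -1.49 at 24h against 0h. The median difference between ERKi 24h and 24h was 0.18, and 1 region differed, or 2 higher and 2 lower of 7 with the block. No run named here held a region changed from 0h to ERKi 24h in the other direction.

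**Figure D4:**
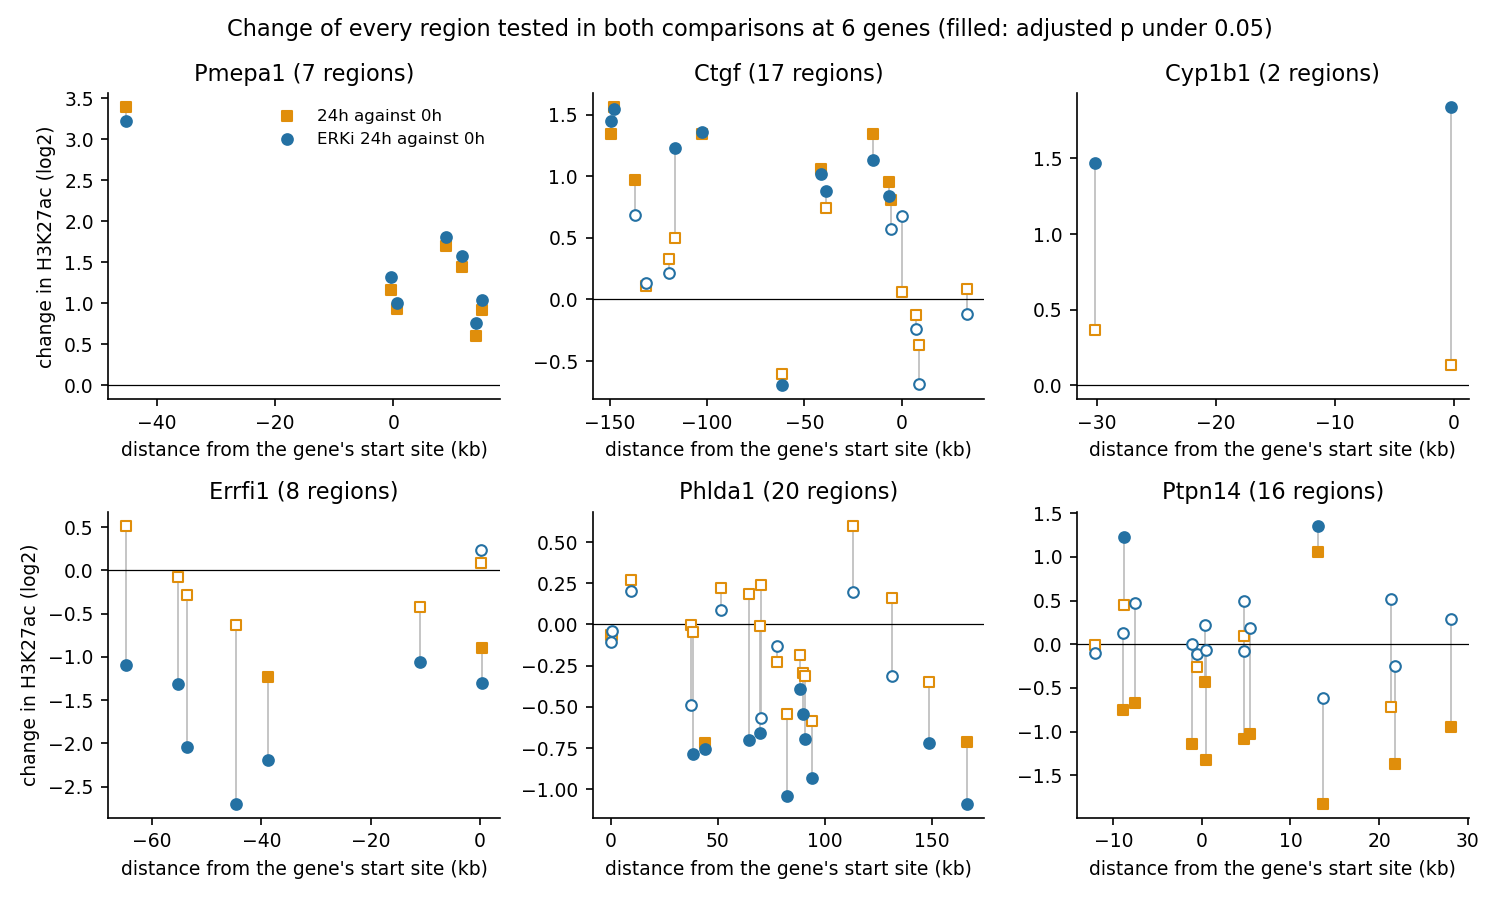
Change in H3K27ac (y axis, log2) from 0h to ERKi 24h (circles) and from 0h to 24h (squares), both against the same 3 0h libraries, for every region tested in both comparisons, by its distance from the gene's start (x axis, kb). Filled symbols passed the threshold and grey lines join the same region. At Pmepa1 both symbols lie close together, at Errfi1 7 regions fell in ERKi 24h and at Cyp1b1 both regions are filled for ERKi 24h and open for 24h.

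Genes of TGF-β and Smad signalling changed in both directions. For the 34 such genes with a tested region, 51 of 253 tested regions were higher (20.2%) and 33 lower (13%), beside 10.4% and 10.2% over all regions, and the median change was 0.10 against -0.04. With the replicate block these were 81 higher and 55 lower, beside 5873 and 6717 of all 30116 regions. That is the base for the blocked counts of ERKi 24h against 0h in every list below. For blocked counts of ERKi 24h against 24h the base is 4459 higher and 4566 lower of 32021. For 24h against 0h it is 5201 higher and 5531 lower of 29359. Without the block, rises were at 19 genes and falls at 14, with both at 6. Genes whose products restrain the pathway, chosen here after their values were seen, went both ways. All 7 tested regions of Pmepa1 rose, as did all 3 of Skil, which represses Smad targets. Smad7, an inhibitory Smad gene, had 7 higher regions and 1 lower of 18. The other inhibitory Smad gene, Smad6, had 0 higher and 3 lower of 11, or 2 and 3 with the block, and the ubiquitin ligase gene Smurf1 0 higher and 1 lower of 8. Connective tissue growth factor Ctgf, a target of TGF-β and of YAP, had 8 higher regions and 1 lower of 17, and of its 20 regions tested against 24h 0 were higher and 0 lower, or 2 and 1 with the block.

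Among components of the pathway, an intronic region 1.51 kb downstream of a start of Eng, the co-receptor endoglin (chr2:32535028-32537112), rose from 30.4, 35 and 25.3 at 0h to 163, 114 and 205 in ERKi 24h, a change of 2.38 ± 0.24 (SE, adjusted p = 4.6e-06). A region 119 kb from the start of Tgfb3, a TGF-β ligand gene (chr12:87300186-87301961), rose from 28.9, 20.2 and 19.9 to 102, 86.1 and 122, a change of 2.18 ± 0.25 (SE, adjusted p = 2.1e-05). Both were at similar levels in the DMSO arm, with 217, 145 and 249 for Eng and 108, 66.6 and 115 for Tgfb3 at 24h. The receptor gene Tgfbr2 had 4 lower regions of 13 and none higher, and 8 lower with the block. Of the Id genes, inhibitors of helix-loop-helix factors, Id2 had 5 lower regions of 11, Id1 2 of 6 and Id3 0 of 4, none of them higher, and with the block these were 6, 5 and 1 lower, with 1 of Id2 higher. A region 85.9 kb upstream of Id2 (chr12:25866447-25867269) went from 88.2, 69.6 and 93.5 to 14, 21.1 and 22.2, a change of -2.15 ± 0.29 (SE, adjusted p = 6.5e-05), with 27.6, 25.3 and 50.4 at 24h.

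Of mesenchymal and EMT factor genes, 28 of 188 tested regions were higher (14.9%) and 16 lower (8.51%), beside 10.4% and 10.2% overall. Their median change was 0.13. The replicate block gave 65 higher and 32 lower. A region 15.6 kb downstream of the start of Snai1, which encodes the repressor of E-cadherin Snail (chr2:167377899-167379825), rose from 57.7, 50.4 and 50.8 at 0h to 166, 144 and 183 in ERKi 24h, a change of 1.63 ± 0.21 (SE, adjusted p = 5.5e-05) that turned to -0.28 by fold enrichment. The 24h libraries held 193, 99.3 and 178, which overlapped ERKi 24h (0.12 ± 0.21, SE, adjusted p = 0.84). Snai1 as a whole had 1 higher region of 3, with median changes of 0.80 in ERKi 24h and 1.42 at 24h against 0h. Its median difference between ERKi 24h and 24h was -0.30, with 0 regions higher and 0 lower, or 2 lower of 3 with the block. Regions near Sox4, a factor of EMT (chr13:29008399-29011413), and in an intron of Itgav, the integrin αv gene (chr2:83598449-83600358), changed by 1.46 ± 0.16 (SE, adjusted p = 1.3e-05) and 2.2 ± 0.30 (SE, adjusted p = 7.9e-05). The smallest adjusted p on the list was 538 kb upstream of the Notch ligand gene Jag1 (chr2:137479080-137481573), from 15.8, 14.1 and 21 to 145, 91.5 and 168, 2.97 ± 0.31 (SE, adjusted p = 8.4e-06). So distant a region is named by Jag1 only because no start site lies nearer.

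On this list more regions were lower than higher with the inhibitor. In ERKi 24h against 24h, 5 of 221 regions were higher and 30 lower (2.26% and 13.6%), beside 3.55% and 4.48% over all 32021 regions tested, and the median difference was -0.21. With the block 18 were higher and 69 lower. Jag1 had 8 regions lower of 25, and Ltbp1, which encodes a protein that holds latent TGF-β in the matrix, 6 of 14, and with the block these were 14 and 11. At Ltbp1 the median change from 0h was 0.50 in ERKi 24h and 1.26 at 24h.

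Epithelial junction and identity genes had more regions higher than lower in ERKi 24h. Of their tested regions 20 of 133 were higher (15%) and 11 lower (8.27%), beside 10.4% and 10.2% over all regions, and the median was 0.01. With the replicate block these were 35 higher and 24 lower. Of the 11 promoter regions tested on the list, 0 were higher and 2 lower without the block. In the DMSO arm the list had 16 higher and 14 lower of 134 (11.9% and 10.4%, beside 10.5% and 8.05% overall). The 4 genes with the smallest adjusted p all had rising regions. A region 12 kb upstream of Cldn4, a tight junction claudin (chr5:135434508-135435971), went from 56.3, 42.6 and 60.6 at 0h to 176, 143 and 205 in ERKi 24h, with 187, 135 and 182 at 24h, a change of 1.72 ± 0.19 (SE, adjusted p = 1.6e-05) that turned to -0.28 by fold enrichment. Regions near the polarity gene Pard3, the epithelial factor gene Grhl2 and the desmosome gene Pkp2 changed by 2.23 ± 0.26 (SE, adjusted p = 2.1e-05), 2.24 ± 0.29 (SE, adjusted p = 4.8e-05) and 1.52 ± 0.22 (SE, adjusted p = 0.00012). None of these 4 passed the test of a difference from 24h, but with the replicate block Pard3 (0.77 ± 0.21, SE, adjusted p = 0.007), Grhl2 (0.64 ± 0.17, SE, adjusted p = 0.0068) and Pkp2 (0.49 ± 0.17, SE, adjusted p = 0.027) were above 24h. Grhl2 as a whole went both ways, with 1 region higher and 2 lower of 8. So did Pard3, with 3 higher and 2 lower of 12, and 3 regions gained and 4 lost by calls. The keratin gene Krt19 had 3 lower regions of 6 and none higher, and at Cdh1, the E-cadherin gene, 0 of 6 tested regions passed in either direction. With the block 5 regions of Krt19 and 3 of Cdh1 were lower.

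ERK feedback and target genes had more regions lower than higher in ERKi 24h. Of 259 regions 63 were lower (24.3%, beside 10.2% overall) and 32 higher (12.4%, beside 10.4%), with a median change of -0.18. The replicate block gave 47 higher and 105 lower. In the DMSO arm the same list had 25 lower and 40 higher of 274 (9.12% and 14.6%, beside 8.05% and 10.5% overall), with a median of 0.03. In ERKi 24h against 24h, 28 were lower and 3 higher of 266 (10.5% and 1.13%, beside 4.48% and 3.55% overall). With the block these were 47 lower and 68 higher in the DMSO arm, and 82 lower and 15 higher against 24h. The intronic region just downstream of the start of Fosl1, the gene of the AP-1 factor Fra-1 (chr19:5447637-5449750), held 224, 261 and 266 at 0h and 270.1, 330.3 and 247 at 24h, which overlapped, and 90.6, 88.7 and 77.3 in ERKi 24h. It differed from 0h by -1.55 ± 0.15 (SE, adjusted p = 3.9e-06) and from 24h by -1.72 ± 0.15 (SE, adjusted p = 3e-05). In ERKi 4h it held 187, 141 and 156, between both.

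Falls were at Phlda1 (12 of 22 tested regions), Myc (8 of 34, with 3 others higher), the cyclin D1 gene Ccnd1 (7 of 12), the Eph receptor gene Epha4 (5 of 16), Dusp6 (3 of 7) and Spry2 and Spry4, inhibitors of receptor signalling (2 of 4 and 2 of 2). With the block these were 21 for Myc and 5 for Dusp6, and for the others within 1.5 times. Members of the list with higher regions alone were Fos (4 of 9) and Elk3, an ETS factor gene (4 of 7, or 7 with the block), among others. These genes were chosen after their values were seen. Not every phosphatase gene fell. A region 2.48 kb upstream of Dusp2 (chr2:127158594-127159782) rose from 75.9, 96.2 and 97.8 to 213, 178 and 237, 1.22 ± 0.15 (SE, adjusted p = 4.4e-05), and Dusp5 had 3 higher regions of 4. A region 229 kb upstream of Dusp4 (chr8:35640401-35642394) fell from 107, 93.7 and 123 to 20.1, 21.1 and 35.7, -2.12 ± 0.25 (SE, adjusted p = 2.1e-05), and had 26.6, 26.6 and 30.9 at 24h. Dusp4 as a whole went both ways, with 2 higher regions and 1 lower of 9, or 4 and 1 with the block, and a median change of 0.29. The region 23.2 kb from Ier5, an immediate-early gene (chr1:156923337-156923780), fell from 96.7, 133 and 151 to 42.9, 41.4 and 46.8, -1.51 ± 0.20 (SE, adjusted p = 7.1e-05), and its difference from 24h was -0.76 ± 0.20 (SE, adjusted p = 0.027).

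The AP-1 factor genes, Fosl1 included, had more regions higher than lower. Of 60 regions 14 were higher (23.3%) and 4 lower (6.67%), beside 10.4% and 10.2% over all regions. Under the block 18 were higher and 10 lower, beside 5873 and 6717 of all 30116 regions. A region 19.1 kb upstream of Fos (chr12:86795315-86796280) rose from 46.3, 53 and 45.3 at 0h to 121, 131 and 150.5 in ERKi 24h, 1.48 ± 0.21 (SE, adjusted p = 0.00013), with 93, 77.1 and 114 at 24h. A region 28.7 kb upstream of Jdp2, whose product dimerises with Jun (chr12:86910280-86912266), rose from 23, 25.8 and 22.1 to 42.9, 48.2 and 62.5, 1.1 ± 0.21 (SE, adjusted p = 0.0014). All 3 ERKi 24h values there were above the 24h values of 31, 29.1 and 30.9, a difference of 0.74 ± 0.22 (SE, adjusted p = 0.047). Of 2 regions of Junb, both rose, and of 6 of Maff, a small Maf factor gene, 2 fell, or 4 with the block. The Maff region with the smallest adjusted p (chr15:79190760-79192416) changed by -1.09 ± 0.23 (SE, adjusted p = 0.0031).

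Genes and targets of the aryl hydrocarbon receptor, a factor that binds dioxins, many flavonoids and other small aromatic compounds and switches on detoxifying enzymes, had 8 regions higher and 8 lower of 43 (18.6% each, beside 10.4% and 10.2% overall). By calls 14 of 126 were gained (11.1%, beside 4.38%) and 0 lost, beside 1.8%. In ERKi 24h against 24h, 9 of 49 were higher (18.4%, beside 3.55%) and 2 lower (4.08%, beside 4.48%), or 15 and 5 with the replicate block. The promoter of Cyp1b1, a cytochrome P450 gene that the receptor induces (chr17:80113641-80116356), held 46.3, 42.6 and 40.0 fragments at 0h and 43.4, 49.4 and 48.4 at 24h. In ERKi 24h it held 146, 131 and 187, above all the others, and in ERKi 4h 104, 103 and 119. The change from 0h was 1.84 ± 0.18 (SE, adjusted p = 4.3e-06) and the difference from 24h 1.7 ± 0.18 (SE, adjusted p = 7.8e-05), while 24h differed from 0h by 0.13 ± 0.18 (SE, adjusted p = 0.73). Near Cyp1b1 6 of 17 regions were gained by calls and 0 lost. As given above, the fold enrichment of this promoter did not rise.

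A region 7.24 kb upstream of Fam102a (chr2:32382875-32384312) held 51.9, 43.8 and 50.8 at 0h, 61.8, 35.2 and 82.7 at 24h and 140.1, 133 and 202 in ERKi 24h. Its change from 0h was 1.67 ± 0.31 (SE, adjusted p = 0.00099) and its difference from 24h 1.46 ± 0.31 (SE, adjusted p = 0.0079). Other members of the list moved the opposite way. A region 5.13 kb downstream of the start of Tnfaip2 (chr12:112693279-112695046) fell from 94.6, 111 and 118 to 56.2, 56.2 and 69.5, -0.83 ± 0.18 (SE, adjusted p = 0.0025), and differed from 24h by -1.22 ± 0.18 (SE, adjusted p = 0.00054). A region 8.36 kb upstream of Aldh3a1, an aldehyde dehydrogenase gene that the receptor induces (chr11:61012267-61014743), fell from 100.1, 75.7 and 108 to 32.8, 37.4 and 54.4, -1.21 ± 0.26 (SE, adjusted p = 0.0028), and had 30.2, 42.4 and 36.6 at 24h.

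Inflammatory and NF-κB genes changed about as often as all regions, with 12 of 125 higher (9.6%, beside 10.4%) and 15 lower (12%, beside 10.2%). Blocked by replicate, 27 were higher and 30 lower. A region 3.38 kb upstream of Tlr2, a receptor for bacterial lipoproteins (chr3:83647682-83649647), rose from 18.4, 15.5 and 17.7 at 0h to 149, 134 and 184 in ERKi 24h, 3.17 ± 0.22 (SE, adjusted p = 2.9e-07), with 142, 97 and 169 at 24h. A region 147 kb upstream of Tnfaip3, which encodes the NF-κB inhibitor A20, changed by 2.03 ± 0.25 (SE, adjusted p = 3.2e-05). Falls were at Il33, with 341, 248 and 334 at 0h and 74.6, 101 and 99.5 in ERKi 24h 55.2 kb upstream (-1.74 ± 0.22, SE, adjusted p = 4e-05), and at the chemokine gene Cxcl5, with 89.6, 69.6 and 98.9 and 22.3, 37.4 and 31.9 (-1.51 ± 0.25, SE, adjusted p = 0.00045).

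YAP and TEAD targets had 21 of 137 regions higher (15.3%, beside 10.4% overall) and 11 lower (8.03%, beside 10.2%). Under the block 38 were higher and 33 lower. Regions near Ctgf, Wwc2, a Hippo pathway gene, and F3, the tissue factor gene, changed by 1.36 ± 0.20 (SE, adjusted p = 0.00013), 2.09 ± 0.31 (SE, adjusted p = 0.00014) and 1.49 ± 0.22 (SE, adjusted p = 0.00017). A region 95 kb upstream of Frmd6 (chr12:71830128-71831975) fell from 79.9, 94.9 and 94.6 to 32.8, 23.8 and 22.2, -1.79 ± 0.24 (SE, adjusted p = 6.2e-05), with 22.9, 29.1 and 21.5 at 24h. Ptpn14, whose product restrains YAP, stood out by the inhibitor comparison and not by the change from 0h. There 12 of 17 regions were higher in ERKi 24h than at 24h and 0 lower, while the median change from 0h was 0.13 in ERKi 24h and -0.74 at 24h. Ptpn14 was chosen after its values were seen.

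Receptor kinase genes, mainly of the FGF, EGF and PDGF families, had 3 of 62 regions higher (4.84%, beside 10.4% overall) and 7 lower (11.3%, beside 10.2%). At the 4 genes with the smallest adjusted p, the region with that value fell. Blocked by replicate, 8 were higher and 14 lower. Those 4 regions were near Fgfr3 (-1.75 ± 0.24, SE, adjusted p = 8e-05), Igf1r (-1.32 ± 0.20, SE, adjusted p = 0.00027), Fgfr2 (-1.0 ± 0.21, SE, adjusted p = 0.0034) and Met (-0.89 ± 0.20, SE, adjusted p = 0.0039). Met as a whole went both ways, with 2 higher and 2 lower regions of 14, and Fgfr2 had 1 lower of 10 with a median of 0.06. The Fgfr3 region went from 56.3, 61.3 and 81.2 at 0h to 16.3, 21.1 and 21.4 in ERKi 24h, with 27.6, 32.8 and 41.4 at 24h. Of the 12 regions nearest to blood, endothelial and neuronal markers, 3 were higher (25%, beside 10.4%) and 4 lower (33.3%, beside 10.2%). None of them was at a promoter. Intronic regions near Cdh5 and Snap25 changed by 1.74 ± 0.23 (SE, adjusted p = 6.6e-05) and -1.56 ± 0.21 (SE, adjusted p = 9e-05). Regions near Syt1 and Ptprc changed by 0.62 ± 0.19 (SE, adjusted p = 0.027) and -0.85 ± 0.27 (SE, adjusted p = 0.034), calls that were lost without some single libraries. The promoters of all 4 genes had no peak.

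**Figure D5:**
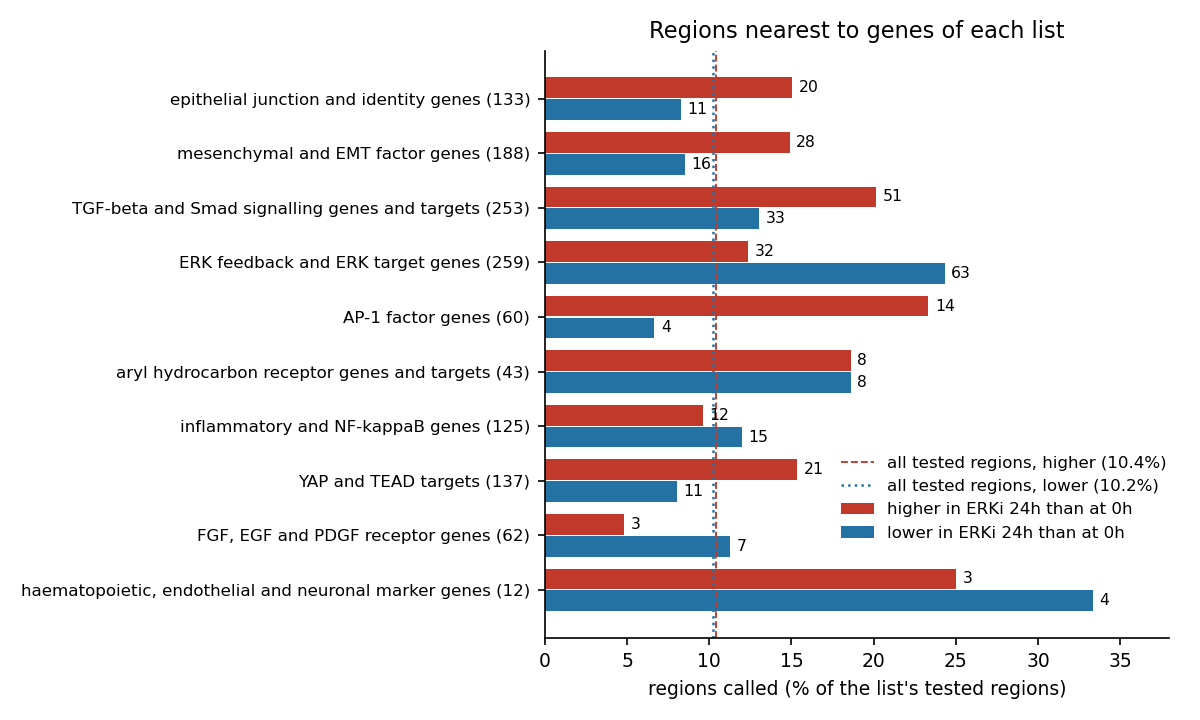
Regions higher (red) and lower (blue) in ERKi 24h than at 0h as a percentage of the tested regions nearest to the genes of each list (x axis), with the number of regions beside each bar and the number tested in brackets after each list (y axis). Dashed and dotted lines mark 10.4% and 10.2% of all tested regions. The blue bar of the ERK list reaches 24.3%, and the red bars of the TGF-β and AP-1 lists reach 20.2% and 23.3%. The last list holds 12 regions.

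The effect of the inhibitor itself, ERKi 24h against 24h, was seen at fewer regions than the change from 0h. Of 32021 regions tested, 1138 were higher with the inhibitor (3.55%) and 1435 lower (4.48%), and with the replicate number as a block these were 4459 and 4566. Without ERKi 24h replicate 3 the number higher was 426 and without 24h replicate 1 it was 635. Without 24h replicate 3 the number lower was 857, and without ERKi 24h replicate 1 it was 954. The 0h libraries, which enter that fit only through the normalisation and the estimate of the spread, give a level to set beside both groups. Of the lower regions, 1236 had a peak in all 3 0h libraries, and the 0h level was nearer to ERKi 24h at 525 of them and nearer to 24h at 711. Of the higher regions, 968 had 0h peaks, nearer to ERKi 24h at 559 and nearer to 24h at 409. Fitted to the 6 ERKi 24h and 24h libraries alone, 811 regions were lower and 548 higher. The 0h level was then nearer to ERKi 24h at 317 of 692 lower and 263 of 453 higher regions with 0h peaks. Median pileups of the lower regions were 61.8 at 0h, 80.4 at 24h and 35.9 in ERKi 24h, and those of the higher regions 60.8, 37.3 and 80.2.

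Changed regions lay mostly away from promoters, taken as 1000 bp upstream to 100 bp downstream of a start site. A promoter held 6.83% of the higher regions and 11.8% of the lower ones, beside 21.7% of all tested regions, and 3.3% of the gained and 6.74% of the lost, beside 10.6% of all merged regions. Introns held 46.9% of the higher and 36.6% of the lower regions. The median distance to a start site was 15.9 kb for the higher and 15.7 kb for the lower regions, against 5.61 kb for all tested.

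Motifs were counted outside promoters, in 201 bases at the summits. CAGAC was present at 46.3% of higher, 39.5% of lower, 46% of gained and 37.3% of lost regions, beside 41.3% of all tested regions outside promoters. The AP-1 letters TGANTCA were at 5.05% of higher, 5.42% of lower, 6.41% of gained and 4.95% of lost regions, beside 4.49%. The RUNX letters TGTGGTT were at 3.38% of higher and 4.65% of lower regions, beside 3.38%, and the ETS letters GGAAGT at 12.2% and 13.8%, beside 12.5%. GCGTG, which holds a CpG, was at 11.8% and 13.1%, beside 17.1%. The median GC content was 49.2% for higher, 49.2% for lower and 51.2% for all tested regions outside promoters, and its part in these shares was not tested. For FOX (TGTTTAC) the shares of higher and lower regions were 2.73% and 2.62%, for TEAD (GGAATG) 11.7% and 11%, for GRHL (AACCNGTT) 1.64% and 1.55%, and for NF-κB (GGGANTTCC) 0.784% and 0.812%. For CEBP (TTNCNNAA) they were 31.7% and 31.2%, and for ZEB and SNAI (CACCTG) 16.5% and 16.5%. Over all tested regions outside promoters these 6 were at 2.35%, 10.2%, 1.42%, 0.827%, 28.3% and 16.2%. No test was made of these shares.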

How the data were processed

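The 15 deposited H3K27ac peak lists were analysed, and the 10 RNA-seq and 3 input samples were not analysed here. The authors mapped reads to mm9 using bowtie and samtools, and ran MACS2 with its defaults separately on every library. The control used for peak calling is not given in the sources used here. The deposited lists give for each peak the fold enrichment, a ratio to the local background, and -log10 p and -log10 q values. The authors' later merging and filtering are not in these values.

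The pileup at each summit was solved from the deposited fold and -log10 p, with the fold as (pileup + 1) / (background + 1) and p as a Poisson tail, and 25 of 893719 peaks missed a whole pileup by over 0.005 in -log10 p. Overlapping peaks of all lists were merged. Log2 pileups were quantile normalised over the 26934 regions called in every library. limma with a mean-variance trend was fitted to the 5 condition means over all 15 libraries, and p-values were adjusted by Benjamini-Hochberg over all regions tested. On simulated data for this comparison with 200 of 26934 regions changed by 1 on the log2 scale, 52% were called, with 7 false calls. The simulated noise was independent between libraries, unlike the real deviations, and far fewer regions changed than were called here. These rates therefore need not hold for the real libraries. Library totals were compared by exact permutation. Read totals are not among the deposited columns, so the depth is unknown and no counting interval is given.

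Replicate numbers are shared by all conditions. Deviations from condition means correlated between libraries of the same number in 30 of 30 pairs above 0.1 (mean 0.58), against 9 of 60 pairs of other numbers, so the number was used as a block in an alternative. No 2 libraries held the same values.

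The comparison, the gene lists and the tests were chosen with earlier results of these data known. Named are the 5 regions of largest change in each direction, the 5 of highest pileup among gained and lost regions, the 5 genes with most of these (ties kept, with 1 gene not reported here) and the 4 genes of smallest adjusted p in each of 10 lists. Genes, start sites and sequences are those of GENCODE vM1 on NCBIM37, the build of the files. Alternatives were the block, median centring, fold enrichment, -log10 p, the 6 libraries alone, stricter peaks (-log10 q of at least 10, or 20000 peaks), a floor for missing calls, 500 bp windows, other merging and overlap rules, chromosomes 1 to 19 and X, and each library left out. Python 3.11.15, NumPy 2.4.6, SciPy 1.17.1, pandas 2.3.3, matplotlib 3.10.9, R 4.3.3 and limma 3.58.1 were used.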

Additional observations from a re-analysis of the deposited data

Results flagged for a closer look

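At 11 of the 50 named regions that could be tested between ERKi 24h and 24h, the change to 24h differed with and without the inhibitor by the direct test (limma). Over all 32021 regions tested, 3.55% were higher with the inhibitor and 4.48% lower. The named regions were chosen on ERKi 24h against 0h, which shares the ERKi 24h libraries with this test. That choice favours such differences, so the 11 are not a result about these regions as a set. Higher with the inhibitor were a region near Morn4 by 1.31 (adjusted p = 0.0016), the Cyp1b1 promoter by 1.7 (adjusted p = 7.8e-05), a region near Fam102a by 1.46 (adjusted p = 0.0079) and a region near Jdp2 by 0.74 (adjusted p = 0.047). Lower with it were regions near 1110012J17Rik, at -2.71 (adjusted p = 4.8e-05), Muc5b, at -2.03 (adjusted p = 0.00017), and Tprg, at -1.91 (adjusted p = 0.00058). The same held for Fosl1, at -1.72 (adjusted p = 3e-05), Tnfaip2, at -1.22 (adjusted p = 0.00054), Jak2, at -1.01 (adjusted p = 0.015), and Ier5, at -0.76 (adjusted p = 0.027). All values are log2 differences between 3 and 3 libraries, and at each of the 11 regions the values of the ERKi 24h and 24h libraries did not overlap. With the replicate block 13 more of the 50 regions passed the same test, among them Steap4, Sox10, Pard3, Wwc2, Fgfr3 and Id2, and none that had passed was lost. Over all 32021 regions, 4459 were higher and 4566 lower with the block. Groups of 3 libraries are too small for a check of single outlying libraries.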

How the results depend on the processing

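Direction counts moved with the measure, and the cause was not tested except where the alternative itself tests fewer or more regions. With the replicate number as a block they were 5873 higher and 6717 lower for ERKi 24h against 0h, 4459 and 4566 for ERKi 24h against 24h, and 5201 and 5531 for 24h against 0h. By fold enrichment they were 1177 higher and 1237 lower for ERKi 24h against 0h, 191 and 186 for ERKi 24h against 24h, and 722 and 723 for 24h against 0h. By -log10 p they were 2152 higher and 2000 lower for ERKi 24h against 0h, 612 and 798 for ERKi 24h against 24h, and 1847 and 1188 for 24h against 0h. With peaks of -log10 q of at least 10, which left 19745 regions for the first comparison, they were 1292 higher and 1058 lower for ERKi 24h against 0h, 237 and 386 for ERKi 24h against 24h, and 1181 and 689 for 24h against 0h. With regions called in at least 3 of 6 libraries and a floor for the others, 47230 regions, they were 8547 higher and 6259 lower for ERKi 24h against 0h, 3225 and 4268 for ERKi 24h against 24h, and 9218 and 5786 for 24h against 0h. With only the 6 libraries of each comparison they were 3237 higher and 3212 lower for ERKi 24h against 0h, 548 and 811 for ERKi 24h against 24h, and 2671 and 1994 for 24h against 0h. Median centring, 500 bp windows and chromosomes 1 to 19 and X left all 6 counts within 1.5 times. With 1 library left out, they were 2122 to 3004, 1905 to 2902, 426 to 1122, 857 to 1455, 2158 to 3434 and 1401 to 2292 in that order, and without 0h replicate 3 the number lower at 24h than at 0h was 1401. Gained and lost regions were 1884 and 866 with the stricter q, 1196 and 902 with 20000 peaks per list, and 4149 to 9871 and 1788 to 2882 with 1 library left out. Other rules for merging and overlap left both within 1.5 times. The difference in the number of peaks kept its sign, from 5190 to 11759 with 1 library left out, and that in bases ran from 1.38 to 8.14 Mb. As a block, the exact sign-flip p was 0.25 for both, the smallest that 3 pairs allow.

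Of 683 values of the 48 named regions under the alternatives, 635 kept direction and call, 37 kept the direction without passing and 11 turned. All that turned did so by fold enrichment, at log2 changes of Tprg 0.41, Muc5b 0.14, Cldn4 -0.28, Sox4 -0.36, Snai1 -0.28, Dusp2 -0.36, Jdp2 -0.16, Cyp1b1 -0.56, Cxcl5 0.40, Ctgf -0.14, F3 -0.24. The replicate block changed no call of a named region against 0h, and added 13 in ERKi 24h against 24h. Named region values without a library lost the call only near Syt1 and Ptprc, both at low pileup.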
